A study of Mus musculus with 8 samples.

Results

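Transporters of copper, zinc and iron were followed in a fast muscle of the mouse hind limb, the extensor digitorum longus or EDL. The mice lacked Sod1, the cytosolic superoxide dismutase that carries copper and zinc at its active site, or were wild type. The 6 genes were chosen by their symbols in the platform annotation. They are the copper transporters Atp7a, Slc31a1 and Slc31a2, the zinc transporter Slc39a1, the zinc and iron transporter Slc39a14 and the iron exporter Slc40a1. They are 6 of the 7053 genes named on the arrays, each has 1 probe, and dim probes were kept.

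The knockout animals are labelled sod-/-, which the series text calls SOD1 knockouts, and they were compared with animals labelled wild type. All were aged 7 months, each genotype had 4 arrays, 8 in all, and no treatment is named. Total RNA of each muscle was measured on Illumina bead arrays. The sources used here do not give the strain, the sex, how the allele was made or whether each array holds a separate animal. The p-values therefore reflect only the spread from array to array within a genotype, which may be technical. Sod1 itself was not analysed here, and the genotype labels were therefore not checked against the targeted gene.

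Each array held 9232 probes, and its values are the authors' log2 intensities, which run from 3.21 to 14.19 with a median of 6.93 in every array. Fast-muscle markers fit the labelled tissue: 10 of the 12 listed were measured, among them Myl1, Tnnc2 and Mylpf, and their mean per array was 13.68 to 13.77 in the knockout arrays and 13.58 to 13.67 in the wild type. The number of arrays limits the precision, with a median standard error of 0.23 (log2) for a difference between genotypes. The genotypes were compared with limma, fitted to all 9232 probes. With Benjamini-Hochberg adjustment 0% of the probes had an adjusted p under 0.05, the smallest being 0.249, whereas 961 probes, or 10.4%, had an unadjusted p under 0.05. An exact permutation test on every probe, adjusted in the same way, also called 0, but it could not have called any. Its smallest p was 0.0286, reached only by the 5.56% of probes without overlap, too few for the adjusted threshold. The limma count of 0 depended on the arrays: 56 probes passed without knockout replicate 2. With the arrays weighted by their estimated quality 5 passed, and no transporter described here passed in either setting. Over all probes, knockout replicate 2 correlated at 0.9787 with wild-type replicate 1, 0.9635 with replicate 3 and 0.97 with replicate 4. It correlated at 0.9478 with wild-type replicate 2 and at 0.9465 to 0.9588 with the other knockout arrays. Wild-type replicate 2 correlated at 0.9624 with knockout replicate 4, at 0.9264 to 0.952 with the other knockout arrays and at 0.9516 to 0.9616 with the other wild-type arrays. The cause was not tested.

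Copper, zinc and iron cannot cross membranes unaided, and cells set their levels with importers, exporters and binding proteins. SLC31A1 brings copper in through the plasma membrane, SLC31A2 is a related protein of endosomes and lysosomes, and ATP7A pumps copper into the secretory pathway and out of the cell. SLC39 proteins move zinc, and in the case of SLC39A14 also iron that is not bound to transferrin, into the cytosol. SLC40A1, ferroportin, is the known cellular iron exporter of mammals, and macrophages that recycle red cells are known for high levels of it.

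None of the 6 transporters passed the test over all probes. The adjusted p ran from 0.461 for Slc31a2 to 0.742 for Slc39a14 (limma, Benjamini-Hochberg over 9232 probes). The mean was higher in the knockout for Slc31a1, Slc39a1 and Slc39a14 and lower for Atp7a, Slc31a2 and Slc40a1. Higher means made up 3 of the 6, against 47.5% of all probes. The median difference over the 6 was -0.05 (log2, knockout minus wild type), against -0.02 over all probes. At an unadjusted p under 0.05 in either direction (limma) there was 1 of the 6, against 10.4% of all probes. It was Slc31a2, on the lower side, where 4.69% of all probes lay. The genotypes did not overlap at 0 of the 6, against 5.56% of all probes. Without knockout replicate 2, the array on which the count of calls depended, the differences were -0.38 for Atp7a, 0.34 for Slc31a1, -0.68 for Slc31a2, 0.38 for Slc39a1, 0.80 for Slc39a14 and -0.37 for Slc40a1, and none passed. For scale, the absolute difference of Slc31a2 exceeded that of about 91.3% of all probes and that of Slc40a1 exceeded about 89.3%, whereas Slc39a1 stood at 62.5% and Slc31a1 at 63.2%.

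**Figure D1:**
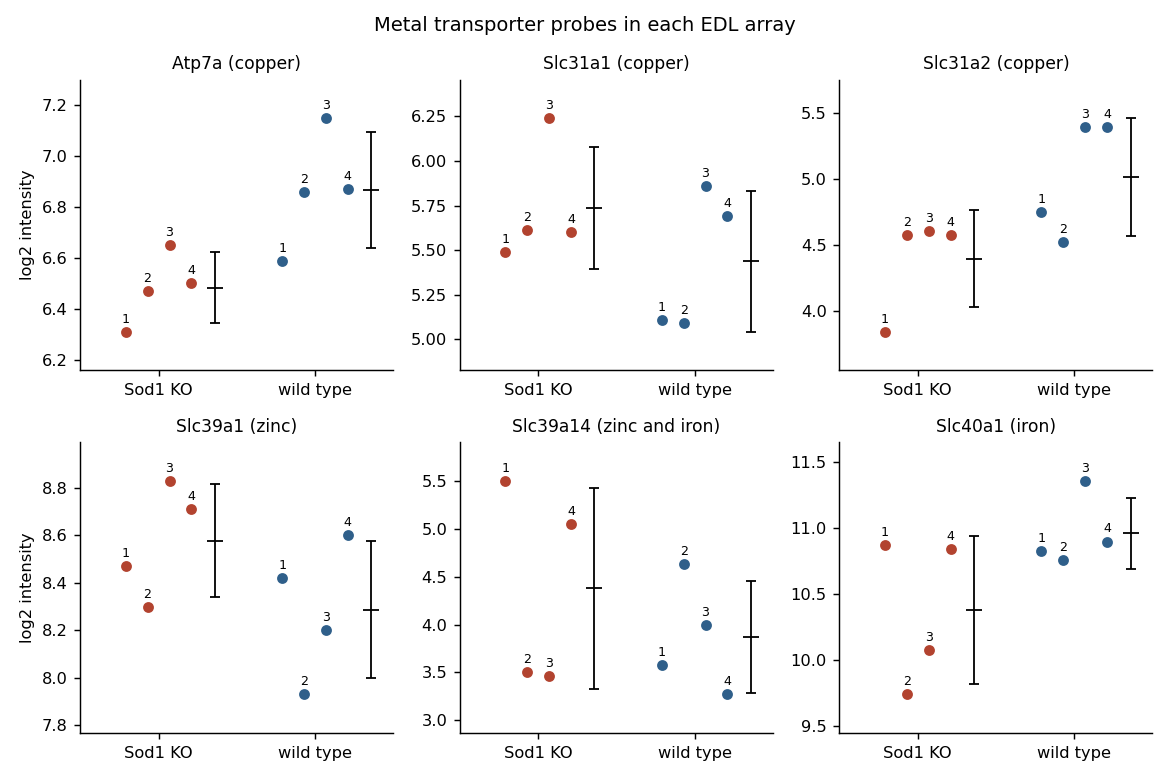
Log2 intensity (vertical axis, a separate range for each gene) of the 6 transporter probes in the 4 Sod1 knockout arrays (red, left) and the 4 wild-type arrays (blue, right), numbered by replicate, with the mean and SD of each genotype as a black bar. In every panel the knockout and wild-type values overlap, and for Atp7a 3 knockout arrays lie below all wild-type arrays.

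Atp7a, the copper pump whose loss causes Menkes disease in humans, had log2 intensities of 6.31, 6.47, 6.65 and 6.50 in knockout replicates 1 to 4, against 6.59, 6.86, 7.15 and 6.87 in wild-type replicates 1 to 4. Knockout replicates 1, 2 and 4 lay below every wild-type array, and replicate 3 lay just above the lowest one, so the genotypes overlapped by a single pair. Its mean was 6.48 ± 0.14 (SD, n = 4) in knockout muscle and 6.87 ± 0.23 in wild-type muscle. The difference was -0.39 ± 0.18 (SE, log2), a knockout to wild-type ratio of 0.766, with a 95% interval of the difference from -0.78 to 0.01 and an adjusted p of 0.482 by limma. Over the 70 ways to assign the genotypes, the exact permutation test gave an unadjusted two-sided p of 0.0571, where 0.0286 is the smallest that 4 against 4 arrays allow. Atp7a varied little within a genotype, its spread exceeding that of about 12.9% of the probes, and it was above the array median in 1 of the 8 arrays, wild-type replicate 3.

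Slc31a2, the endosomal relative of the copper importer, had log2 intensities of 3.84, 4.57, 4.60 and 4.57 in knockout replicates 1 to 4, against 4.75, 4.52, 5.39 and 5.39 in wild-type replicates 1 to 4. Knockout replicates 2, 3 and 4 lay within 0.03 of each other and just above wild-type replicate 2, whereas replicate 1 lay below all other arrays. Its mean was 4.39 ± 0.37 (SD, n = 4) in knockout muscle and 5.01 ± 0.44 in wild-type muscle, a difference of -0.62 ± 0.27 (SE, log2; ratio 0.651) with a 95% interval from -1.21 to -0.03. Its unadjusted p of 0.0424 was the smallest of the 6 genes and its adjusted p was 0.461 (limma). The unadjusted call was lost without knockout replicate 1 (unadjusted p 0.123), knockout replicate 4 (0.0513), wild-type replicate 3 (0.118) or wild-type replicate 4 (0.116) in the limma fit. The exact permutation test gave an unadjusted two-sided p of 0.114. Slc31a2 was dim, below the array median in all 8 arrays, and the sources used here give no detection call for it.

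Slc31a1, the plasma membrane copper importer, ran the other way in its mean. It had log2 intensities of 5.49, 5.61, 6.24 and 5.60 in knockout replicates 1 to 4, against 5.11, 5.09, 5.86 and 5.69 in wild-type replicates 1 to 4. Knockout replicate 3 was the highest array, and the other knockouts lay between the low pair and the high pair of wild-type arrays. The means were 5.73 ± 0.34 (SD, n = 4) in knockout muscle and 5.44 ± 0.40 in wild-type muscle, a difference of 0.30 ± 0.25 (SE, log2; 95% interval -0.26 to 0.85; limma adjusted p 0.695). Without knockout replicate 3 the difference was 0.13. Slc31a1 was also below the array median in all 8 arrays. The RefSeq gene table of mouse GRCm38.p6 places Slc31a1 and Slc31a2 near each other on chromosome 4, with Fkbp15 between them.

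Stretches of the RefSeq promoter table were read for Atp7a and Slc31a2, the copper genes with the smallest p. The table held 4 of the 6 genes, Atp7a, Slc31a1, Slc31a2 and Slc39a1. The metal response element, the site that the zinc-sensing factor MTF1 binds upstream of metallothionein genes, was searched by its core letters TGCACNC and TGCGCNC on both strands of the 250 bases before the start, and 21.4% of 32851 promoters in the table held a match. Atp7a had 2 matches, Slc31a2 had 1, and Slc31a1 and Slc39a1 had 0. The antioxidant response element core, TGACNNNGC, which is bound by the oxidant-responsive factor NRF2, was matched once in Slc31a2 and once in Slc39a1, and not in Atp7a or Slc31a1, against 10.2% of promoters. These matches are letters in a window and not measured sites. Both stretches are on the plus strand of GRCm38.p6, Atp7a at chrX:106026974-106027223 and Slc31a2 at chr4:62286179-62286428, written 5′ to 3′ up to the base before the start, with the metal response element matches in capitals.
Atp7a: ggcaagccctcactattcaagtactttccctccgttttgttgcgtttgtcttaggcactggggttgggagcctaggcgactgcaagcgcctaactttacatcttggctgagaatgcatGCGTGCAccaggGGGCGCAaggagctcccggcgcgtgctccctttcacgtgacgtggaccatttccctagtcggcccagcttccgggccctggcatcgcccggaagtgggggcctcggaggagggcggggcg
Slc31a2: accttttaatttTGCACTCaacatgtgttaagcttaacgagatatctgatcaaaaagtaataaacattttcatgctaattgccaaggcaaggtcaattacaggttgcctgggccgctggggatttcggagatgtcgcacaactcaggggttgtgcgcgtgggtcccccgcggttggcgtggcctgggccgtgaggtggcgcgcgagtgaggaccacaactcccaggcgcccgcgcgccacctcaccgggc
In Atp7a the matches lie on the minus strand, with 125 and 113 bases between them and the start, and in Slc31a2 the match lies on the plus strand, 231 bases from it.

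**Figure D2:**
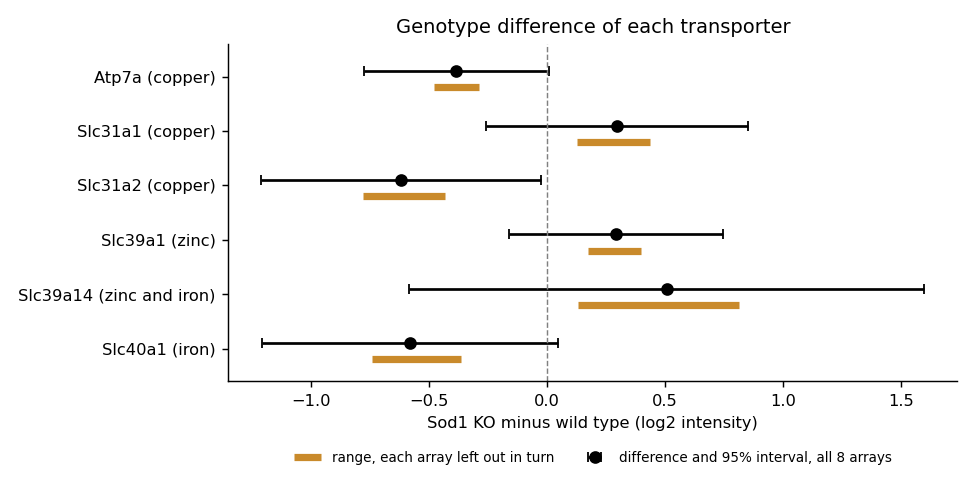
Sod1 knockout minus wild type (horizontal axis, log2 intensity) for each of the 6 transporters, with the difference and its 95% interval over all 8 arrays in black and, below it in ochre, the range of the difference when each array is left out in turn. The interval excludes 0 only for Slc31a2 (-1.21 to -0.03, not adjusted for the 9232 probes), and no range of differences crosses 0.

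Slc39a1, a zinc importer of the plasma membrane that many tissues express, lay above the array median in all 8 arrays. Its log2 intensities were 8.47, 8.30, 8.83 and 8.71 in knockout replicates 1 to 4, against 8.42, 7.93, 8.20 and 8.60 in wild-type replicates 1 to 4. Knockout replicates 3 and 4 lay above every wild-type array, while the lowest knockout, replicate 2, lay inside the wild-type range. The means were 8.58 ± 0.24 (SD, n = 4) in knockout muscle and 8.29 ± 0.29 in wild-type muscle, a difference of 0.29 ± 0.20 (SE, log2; ratio 1.22; 95% interval -0.16 to 0.75; limma adjusted p 0.649). All 4 knockout arrays were above the wild-type mean.

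Slc39a14, an importer of zinc and of iron not bound to transferrin that inflammation induces in liver, had a larger SD within each genotype than the difference between their means. Its log2 intensities were 5.50, 3.50, 3.46 and 5.05 in knockout replicates 1 to 4, against 3.58, 4.63, 4.00 and 3.27 in wild-type replicates 1 to 4. Knockout replicates 1 and 4 lay above every wild-type array, and knockout replicates 2 and 3 lay near the bottom of the wild-type range. Its spread within genotypes exceeded that of about 96.7% of the probes. It was below the array median in all 8 arrays, and its lowest values were close to the lowest on the arrays, 3.21. The means were 4.38 ± 1.05 (SD, n = 4) in knockout muscle and 3.87 ± 0.59 in wild-type muscle, a difference of 0.51 ± 0.49 (SE, log2; 95% interval -0.59 to 1.60; limma adjusted p 0.742). The difference was 0.13 without knockout replicate 1, 0.28 without knockout replicate 4, 0.81 without knockout replicate 3 and 1.05 without both replicates numbered 2.

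Other genes of metal and haem handling, chosen after their values were seen, were high in several of the same arrays. Mt2, a metallothionein that binds zinc and copper, was at 10.09, 6.97, 6.87 and 10.46 in knockout replicates 1 to 4, against 7.52, 11.72, 7.06 and 9.73 in wild-type replicates 1 to 4. Hmox1, the inducible haem oxygenase that frees iron from haem, was at 8.65, 6.67, 6.56 and 9.32 in the knockout, against 7.16, 10.71, 7.52 and 8.29 in the wild type, in the same order of replicates. Knockout replicates 1 and 4 and wild-type replicate 2 were thus high for Slc39a14, Mt2 and Hmox1, whereas wild-type replicate 4 was high for Mt2 and Hmox1 and lowest of all for Slc39a14. Mt1, another metallothionein, was at 13.91, 13.65, 11.99 and 14.00 in the knockout, against 13.44, 13.89, 12.98 and 13.99 in the wild type. Tfrc, the transferrin receptor through which cells take up iron, was at 7.01, 7.92, 10.04 and 6.70 in the knockout, against 5.87, 4.63, 7.75 and 8.37 in the wild type, so its lowest array was the one in which Mt2 and Hmox1 were highest. The adjusted p of the genotype difference was 0.925 for Mt2, 0.826 for Hmox1, 0.913 for Mt1 and 0.652 for Tfrc (limma).

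**Figure D3:**
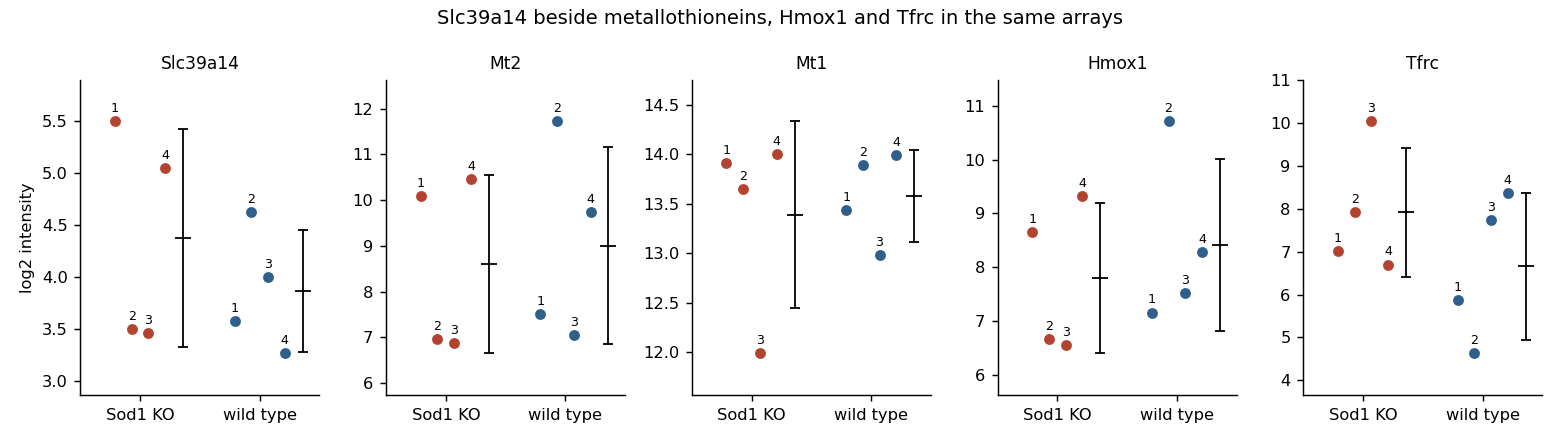
Log2 intensity (vertical axis, a separate range for each gene) of Slc39a14, Mt2, Mt1, Hmox1 and Tfrc in the Sod1 knockout arrays (red, left) and the wild-type arrays (blue, right), numbered by replicate, with mean and SD as black bars. Knockout replicates 1 and 4 are the high pair of their genotype for Slc39a14, Mt2, Mt1 and Hmox1, and the low pair for Tfrc.

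Slc40a1, ferroportin, was measured well above the array median in all 8 arrays. Its log2 intensities were 10.87, 9.74, 10.08 and 10.84 in knockout replicates 1 to 4, against 10.83, 10.76, 11.36 and 10.90 in wild-type replicates 1 to 4. Knockout replicates 2 and 3 lay below every wild-type array, and knockout replicates 1 and 4 lay among the wild-type values. The means were 10.38 ± 0.56 (SD, n = 4) in knockout muscle and 10.96 ± 0.27 in wild-type muscle, a difference of -0.58 ± 0.28 (SE, log2; ratio 0.669; 95% interval -1.21 to 0.05; limma adjusted p 0.502). The exact permutation test gave an unadjusted two-sided p of 0.200. The difference was -0.37 when knockout replicate 2 was left out and -0.74 when knockout replicate 1 was, with adjusted p of 0.542 and 0.557 in the limma fit. In whole muscle, fewer cells of a type and less RNA per cell cannot be told apart.

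Markers of cells other than fibres, in 6 lists, were set beside Slc40a1, which macrophages and red cell precursors also express. Of the 15 macrophage and myeloid symbols listed, where Adgre1 also stands under its older name Emr1, 6 markers were measured. They were dim, with a mean per array of 4.62 to 6.13 in knockout arrays and 4.45 to 6.12 in wild-type arrays. Of these 6, 5 had a higher mean in the knockout, against 45.1% of all genes. Their median difference was 0.33, and none passed. The 5 of 9 erythroid markers measured averaged 7.37 to 7.94 in knockout arrays and 7.51 to 8.49 in wild-type arrays, and 4 of the 5 had a lower mean in the knockout. The 5 of 6 endothelial markers measured averaged 6.20 to 6.57 in knockout arrays and 6.43 to 6.99 in wild-type arrays, all 5 with a lower mean in the knockout and a median difference of -0.49. Tek and Tie1, receptors of vessel cells, differed by -0.50 and -0.66 and were below the array median in all 8 arrays. Their unadjusted p was 0.0127 and 0.0204 and their adjusted p 0.373 and 0.386 (limma). These 2 of the 5 had an unadjusted p under 0.05, against 10.4% of all genes. The genotypes did not overlap for Tek, as at 5.71% of all genes. Of the endothelial genes 3 were above the array median in at least 4 arrays. Among these 3 the median difference was -0.28, and 0 had an unadjusted p under 0.05 (limma). The other lists also had lower means in the knockout. The 2 of 6 fibroblast markers measured averaged 9.57 to 10.04 in knockout arrays and 9.65 to 10.13 in wild-type arrays, and the 2 of 6 Schwann cell and nerve markers averaged 5.79 to 7.65 in the knockout, against 7.08 to 7.45 in the wild type. Fabp4, the 1 of 7 adipocyte markers measured, was at 4.10 to 4.50 in knockout arrays and 4.53 to 5.30 in wild-type arrays. The difference was -0.56 (limma adjusted p 0.386) with no overlap, as at 5.71% of all genes. Fabp4 was below the array median in all 8 arrays. The part of any of these cell types, macrophages included, in the values of Slc40a1 was not tested.

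**Figure D4:**
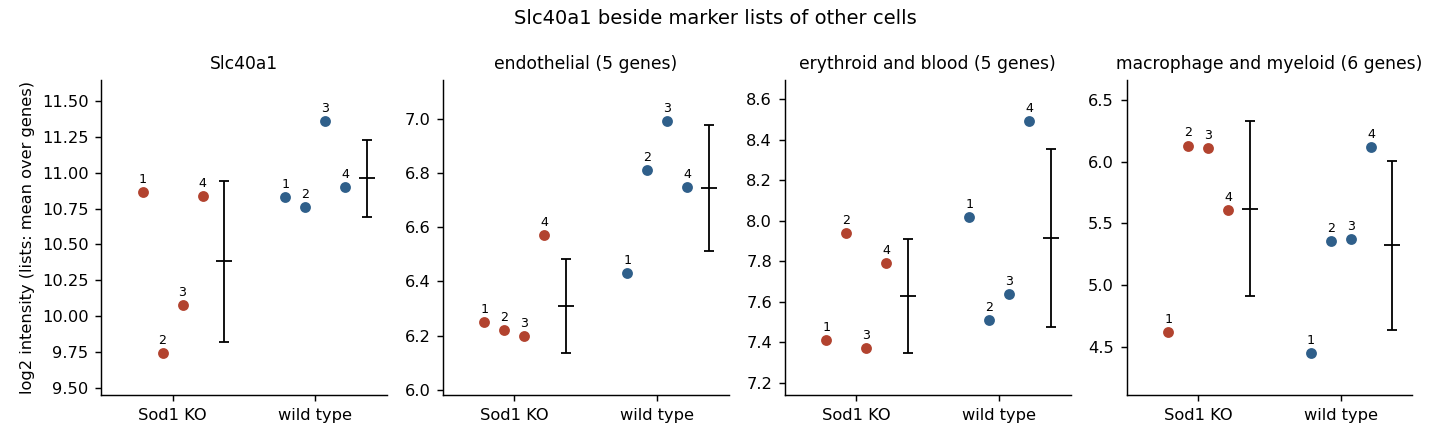
Log2 intensity (vertical axis, a separate range for each panel) of Slc40a1 and mean log2 intensity of the measured endothelial, erythroid and macrophage markers, in Sod1 knockout arrays (red, left) and wild-type arrays (blue, right), numbered by replicate, with mean and SD as black bars. Slc40a1 is lowest in knockout replicates 2 and 3, and 3 of the 4 knockout arrays lie below all wild-type arrays for the endothelial markers.

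The wider copper handling list, with members of the 6 included, had 15 of its 23 genes on the arrays, 6 with a higher and 9 with a lower mean in the knockout. Among all 7053 genes 45.1% had a higher mean. No gene of the list passed over all probes, and its median difference was -0.04 (log2), against -0.04 over all genes. Ccs, the chaperone that delivers copper to SOD1, had log2 intensities of 9.22, 9.21, 9.24 and 9.28 in knockout replicates 1 to 4, against 9.34, 9.38, 9.44 and 9.29 in wild-type replicates 1 to 4. All 4 knockout arrays lay below all 4 wild-type arrays, with knockout replicate 4 close to wild-type replicate 4. This was 1 of the 15 copper genes without overlap, where 5.71% of all genes had none. The difference of Ccs was small, -0.12 ± 0.14 (SE, log2; limma adjusted p 0.800), with an SD of 0.03 among knockout and 0.06 among wild-type arrays. That SE is the moderated one of limma, which draws the spread of a probe toward that of all probes. The exact permutation test gave an unadjusted two-sided p of 0.0286, the value of every probe without overlap.

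The other copper genes of smallest p did not pass either. Cox19, which takes part in copper delivery to cytochrome oxidase, differed by 0.48 and Heph, the copper-dependent ferroxidase hephaestin, by -0.42 (log2). Commd1, which acts in the trafficking of ATP7 copper pumps, differed by 0.28 and Cutc by -0.20. The adjusted p of these 4 genes ran from 0.535 for Cox19 to 0.763 for Cutc (limma). Atox1, the chaperone that carries copper to ATP7A, was chosen after its values were seen and differed by 0.10, with values from 8.74 to 9.22 in knockout arrays and from 8.60 to 9.11 in wild-type arrays.

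Of the 28 zinc handling genes listed 13 were measured, 4 with a higher mean in the knockout and 9 with a lower one, with a median difference of -0.11 (log2). Slc39a1 and Slc39a14 were 2 of the 4, and of the 11 other genes 2 had a higher mean. Among the other genes, Slc30a6, a zinc transporter of the Golgi, differed by -0.25, Slc30a7, another Golgi zinc transporter, by -0.16, Slc39a7, which releases zinc from the endoplasmic reticulum, by -0.15, Slc39a6, a plasma membrane zinc importer, by -0.25, and Slc39a11 by 0.22. Their adjusted p ran from 0.664 to 0.868 (limma), and no zinc gene reached an unadjusted p under 0.05, against 10.4% of all genes. Slc39a11 was high in the same arrays as Mt2, at 5.87, 4.65, 4.36 and 5.64 in knockout replicates 1 to 4, against 4.46, 5.17, 4.50 and 5.50 in wild-type replicates 1 to 4.

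Of the 35 iron handling symbols listed, where Hjv also stands under its older name Hfe2, 22 genes were measured. In the knockout 10 of them had a higher and 12 a lower mean, with a median difference of -0.04 (log2). Slc25a28, the mitochondrial iron importer mitoferrin 2, had log2 intensities of 10.53, 11.11, 10.11 and 11.12 in knockout replicates 1 to 4, against 11.29, 11.84, 11.07 and 11.03 in wild-type replicates 1 to 4. Its difference of -0.59 was close in size to that of Slc40a1, with an adjusted p of 0.489 (limma), and knockout replicates 1 and 3 lay below all wild-type arrays. Hfe, a membrane protein that regulates iron uptake through hepcidin, differed by 0.71, Alas1, the first enzyme of haem synthesis, by 0.33, Alas2, its red cell form, by -0.38 and Heph by -0.42, with adjusted p from 0.497 to 0.640. The ferritin chains that store iron, chosen after their values were seen, differed by 0.12 for Fth1 and -0.20 for Ftl1. Probes of 1 gene did not always run the same way: for Fech, the last enzyme of haem synthesis, chosen after its values were seen, the probe of highest mean differed by -0.10 and the remaining probes by 0.56 and 0.42.

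**Figure D5:**
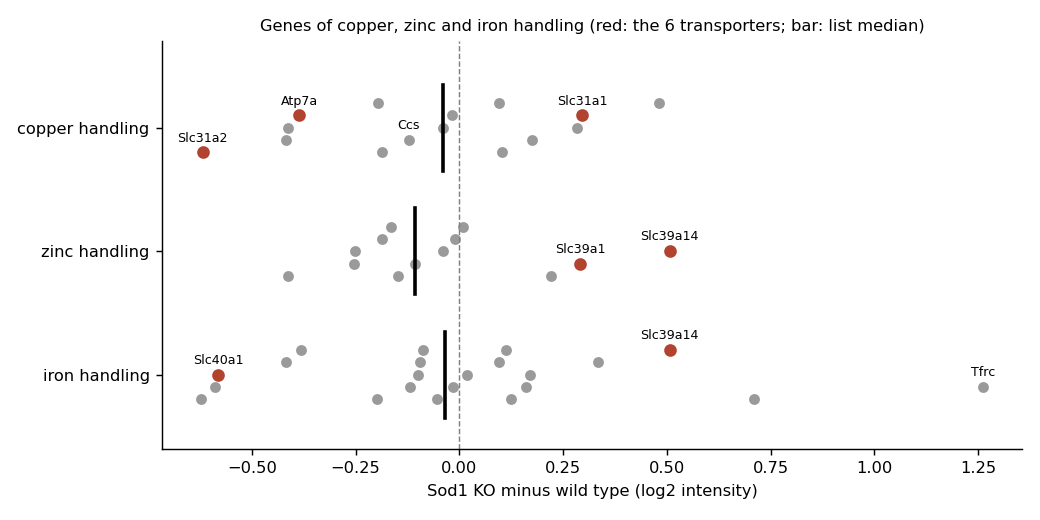
Sod1 knockout minus wild type (horizontal axis, log2 intensity) for the measured genes of copper (15), zinc (13) and iron (22) handling, 1 probe per gene, with the 6 transporters in red, other genes in grey and the list median as a black bar. The vertical offsets within a list only separate the points, and the medians lie at -0.04, -0.11 and -0.04.

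Genes with the most similar profile across the 8 arrays were found by Pearson's r over the arrays, as a description of these arrays that carries no test. For Atp7a they were Ehmt2 (r 0.954), Stk11 (0.938) and Zfp316 (0.930). For Slc31a1 they were Limk2 (0.961), Lynx1 (0.951) and Nfix (0.947), and for Slc31a2 they were Pfdn6 (0.961), Ncl (0.959) and Ryk (0.951). Slc39a1 was most like Mamstr (0.979), a coactivator of the muscle transcription factor MEF2, then Tmem192 (0.972) and Pigk (0.953). Slc39a14 was most like Lmod2 (0.987), an actin filament nucleator of muscle, then Slc1a1 (0.962) and Eya3 (0.953), and Slc40a1 was most like Tsn (0.981), Rere (0.958) and Pelp1 (0.930). None of these 18 profiles belonged to another of the 6 transporters or to a gene of the metal handling lists. Those lists held only 15, 13 and 22 of the 7053 genes, some of them shared, so little can be read from this.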

How the data were processed

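Per the labels' protocols, total RNA of mouse EDL was isolated on columns made for fibrous tissue, amplified as biotinylated cRNA and hybridised to Illumina arrays. The authors deposited log2 intensities for 9232 probes in 8 arrays. All columns hold the same sorted values, so the deposited values were quantile normalized, and a shift of all transcripts in an array cannot be seen. The base of the logarithm was judged from the range. The sources used here name no background correction and no probe filter. A second table was not used, because its 8 columns match no sample's labels.

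In the platform annotation 8403 probes had 1 gene symbol, 3 had several and 826 had none, and 8399 matched the GRCm38.p6 gene table with 0 symbols changed. Differences are knockout minus wild type, from limma version 3.58.1 under R version 4.3.3, with lmFit on genotype and eBayes with no trend. Tests were two-sided, with Benjamini-Hochberg adjustment over all 9232 probes and a threshold of 0.05, and checked on simulated data. Single probes were also compared by an exact permutation test over 70 arrangements. Each SD covers the 4 arrays of 1 genotype, and intervals are at 95%. For a gene of a list the probe of highest mean stood for it. The named genes are all 6 transporters, up to 5 others of smallest p per metal list, 3 of most similar profile per transporter, up to 3 of smallest p per marker list, and a few said to be chosen after their values were seen. The transporters and the lists were chosen with earlier results of these data known. Alternatives covered the filter, moderation, array weights, a replicate block, cyclic loess, averaged probes and each array left out. Leaving out both replicates numbered 2 was added after seeing the data.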

Additional observations from a re-analysis of the deposited data

Results flagged for a closer look

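Of the 12 groups of 4 arrays formed by the 6 transporters and the 2 genotypes, 2 held an array far from the other 3, where chance gives about 1 in 20 groups. Slc31a2 in knockout replicate 1 was at 3.84, while the other knockout arrays lay from 4.57 to 4.60. Slc31a1 in knockout replicate 3 was at 6.24, while the other knockout arrays lay from 5.49 to 5.61. The cause was not tested.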

How the results depend on the processing

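None of the 6 transporters passed the adjusted threshold or changed the sign of its difference under any alternative that could be run. These numbered 16 for each of Atp7a, Slc31a1, Slc31a2 and Slc39a14 and 17 for each of Slc39a1 and Slc40a1. The filter, the other moderations, the replicate block, averaged probes and the permutation test leave these differences unchanged by construction. The permutation test also could not have reached the adjusted threshold. The filter on dim probes left only Slc39a1 and Slc40a1 of the 6. With each array left out in turn the difference (log2) ran from -0.48 to -0.29 for Atp7a, from 0.13 to 0.44 for Slc31a1, from -0.78 to -0.43 for Slc31a2, from 0.17 to 0.40 for Slc39a1, from 0.13 to 0.81 for Slc39a14 and from -0.74 to -0.37 for Slc40a1. The lowest adjusted p over all alternatives was 0.213, for Slc31a2 with array weights (limma). The count of probes past the adjusted threshold, 0 in the main fit, was 5 with array weights, 88 without both replicates numbered 2, and from 0 to 56 with each array left out. The count at an unadjusted p under 0.05 was 961 of 9232 probes, and 439 with the filter, which tests only 4698 probes. It ran from 666 to 1390 with each array left out. Probes without overlap numbered 513, and 216 with the filter, 1967 without both replicates numbered 2, and from 680 to 1395 with each array left out, where fewer arrays make overlap rarer. Of the zinc handling genes 4 of 13 had a higher mean, and 1 of 4 with the filter. Whether arrays of the same replicate number belong together was not settled. Deviations of same-numbered arrays correlated at -0.26 to 0.196 across probes, and those of differently numbered arrays at -0.391 to 0.386. With the replicate block 0 probes passed, 935 had an unadjusted p under 0.05 and the adjusted p of Slc31a2 was 0.457. The 4 arrays per genotype and the unknown background of the dim probes limit all differences given.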
